A study of Mus musculus with 7 samples.

Results

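Parenchymal astrocytes of the V-SVZ (ventricular-subventricular zone, the stem cell region in the wall of the lateral ventricle) were chosen by the UMI counts of marker genes in a single-cell RNA-seq data set of 7 libraries. A cell was kept when 500 to 7000 genes were detected and at most 10% of its UMIs were mitochondrial. A UMI (unique molecular identifier) tags 1 captured mRNA molecule. A kept cell entered the gate with at least 3 UMIs summed over Grin2c, Hsd11b1, Gdf10 and Gjb6 and at least 2 of Slc1a3. It also had to lack Top2a, Mki67, Ccdc153, Tmem212, Mog and Pdgfra and to hold at most 1 UMI of Dcx. The gate held 1327 of 43346 kept cells. Control libraries 1, 2 and 3 gave 271, 141 and 229 of them, cKO libraries 1, 2 and 3 gave 248, 94 and 171, and the DKO library gave 173.

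All 7 libraries came from V-SVZ tissue of mice aged 31 to 33 days, with 2 to 3 mice of both sexes pooled per library. The 3 control libraries carry floxed Prdm16 alleles and no Cre (labelled Prdmflox/flox). The 3 cKO libraries are hGFAP-Cre+/-; Prdm16flox/flox, and the DKO library is hGFAP-Cre+/-; Prdm16flox/flox; Vcam1flox/flox. The human GFAP promoter drives Cre in radial glia and astrocytes. In a cKO mouse, a cell keeps its floxed alleles when neither it nor its precursors expressed Cre. The DKO genotype has 1 library and hence no replicate check.

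Astrocytes of the brain parenchyma clear glutamate and GABA from synapses, buffer potassium, supply neurons with lipids and lactate and are coupled by connexins. Grin2c encodes an NMDA receptor subunit, Hsd11b1 an enzyme that regenerates active glucocorticoid, Gdf10 a TGF-beta family ligand, Gjb6 the connexin Cx30 and Slc1a3 the glutamate transporter GLAST. V-SVZ stem cells are themselves astroglia that share many of these genes, with Gfap and Thbs4 as common markers. PRDM16 is a zinc finger regulator of chromatin that is found in radial glia.

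The gated cells held a median of 6571, 10191 and 8199 UMIs in control libraries 1, 2 and 3, of 5803.5, 13166.5 and 10268 in the cKO libraries and of 9982 in the DKO library. Summed over the gated cells, a library held 1321123 to 2107178 UMIs. No barcode occurred in gated cells of more than 1 library, and 340 barcodes occurred in kept cells of more than 1. The file headers name Cell Ranger 6.0.1 for control and cKO libraries 1 and 2 and 6.1.1 for the other 3. Among the cKO and DKO libraries, 2 stood apart in a measured gene. Prm1, a sperm chromatin gene that was at 0 UMIs in every control library, was detected in 31.05% of the gated cells of cKO library 1 and 39.3% of those of the DKO library, against 66.0% and 72.5% in cKO libraries 2 and 3. With each cell thinned to 3000 UMIs the shares were 20.7%, 36.3% and 40.5% in cKO libraries 1, 2 and 3 and 22.6% in DKO, against 0.524% to 2.34% in endothelial cells of the same libraries. Results that rest on cKO library 1 are given with and without it. That library was singled out from these same data, so a call made without it is a description and not independent support.

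The label was checked against markers that the gate did not use. Slc6a11, the GABA transporter GAT-3 of parenchymal astrocytes, stood at 284 to 364 CPM in gated cells. Here CPM is the UMIs of a gene summed over the cells of a group in a library and scaled to a common library size with TMM (trimmed mean of M values) factors. In 877 cells of the same base gate with at least 3 UMIs summed over Gfap and Thbs4 and 0 of the 4 gate genes (Gfap/Thbs4 glia), Slc6a11 stood at 105 to 161 CPM. The 2059 endothelial cells had at least 3 UMIs summed over Cldn5, Flt1, Ly6c1 and Pecam1, at most 1 of Slc1a3 and 0 of Pdgfrb and Mog. In them Slc6a11 stood at 1.00 to 4.20 CPM. In each of the 7 libraries the gated cells thus held more Slc6a11 than either other group, and Slc6a11 was detected in 81.5% to 91.5% of them. Aqp4, the water channel of astrocyte endfeet, ranged from 554 to 919 CPM in gated cells and from 79.4 to 595 CPM in Gfap/Thbs4 glia. Dio2, which activates thyroid hormone and was chosen after its values were seen, ranged from 92.3 to 139 CPM and from 2.54 to 48.1 CPM in these groups. The stem cell markers were not absent, since Thbs4 ranged from 13.4 to 334 CPM and Gfap from 120 to 551 CPM in gated cells. The summed gated cells thus held the markers of the label together with transcripts of V-SVZ stem cells.

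**Figure D1:**
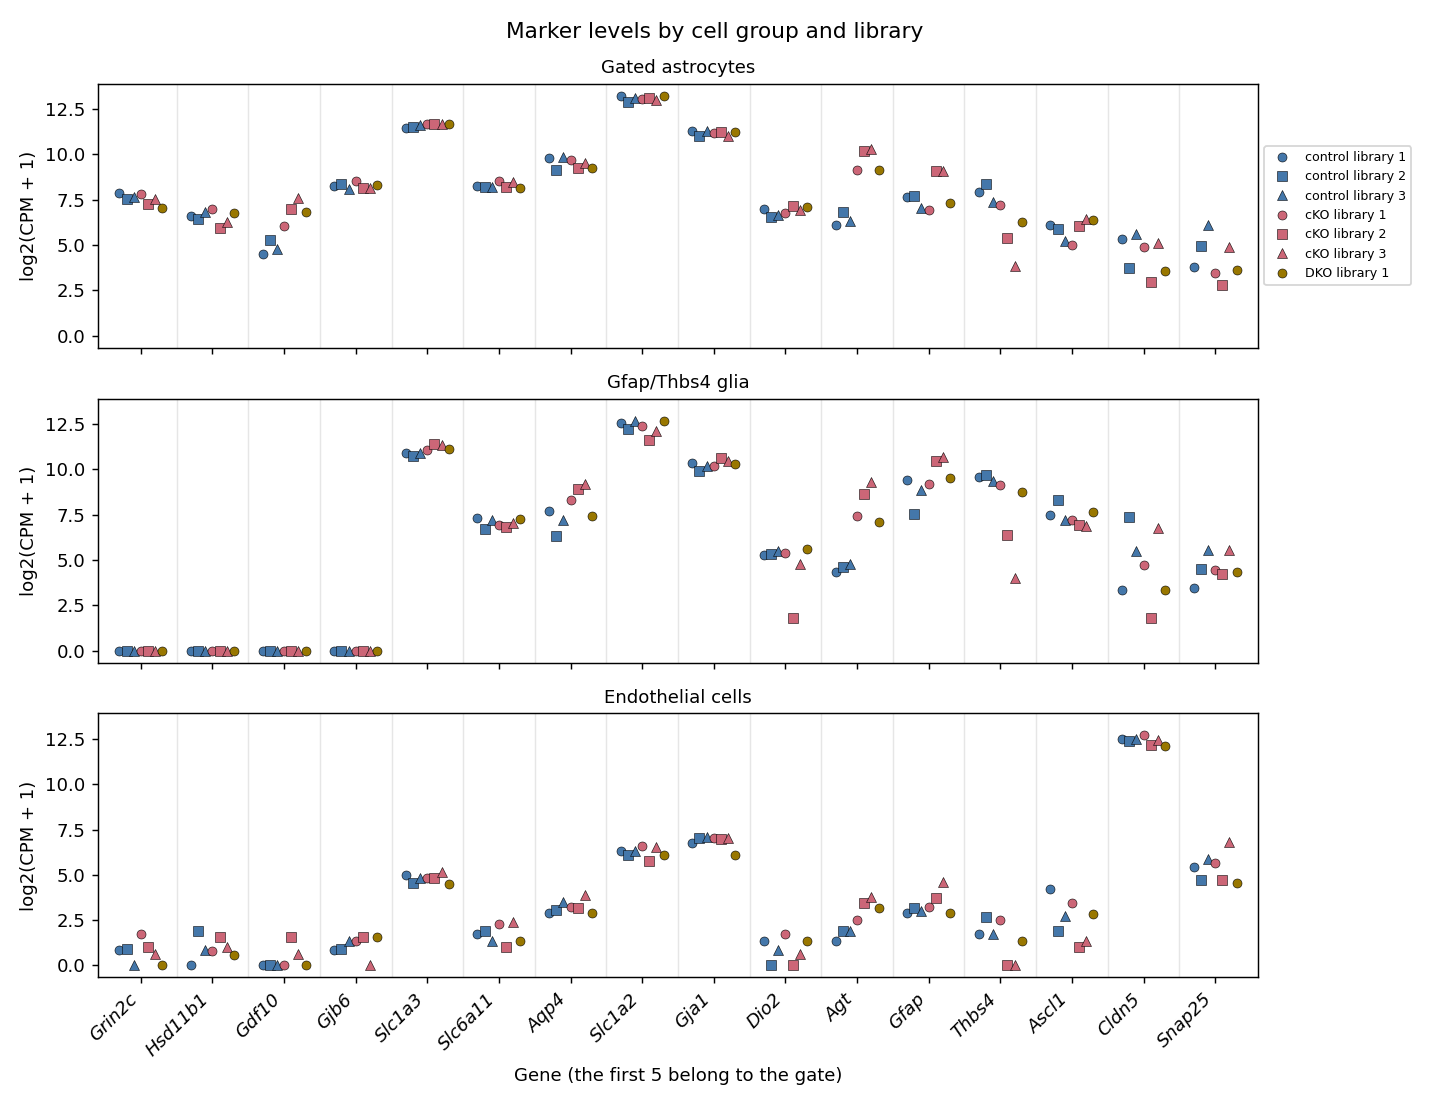
Levels of 16 genes in gated astrocytes, Gfap/Thbs4 glia and endothelial cells. Each point is 1 library, with log2(CPM + 1) on the vertical axis, and the first 5 genes belong to the gate. Slc6a11 and Dio2 are highest in gated astrocytes, and Cldn5 is high in endothelial cells.

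Of the gate genes, Gjb6 was detected in 87.1% to 95.7% of gated cells, Grin2c in 60.7% to 80.4% and Hsd11b1 in 39.4% to 53.3%. Gdf10 was detected in 14.4%, 24.8% and 17.0% of the gated cells of control libraries 1, 2 and 3, in 27.4%, 57.4% and 69.6% of those of the cKO libraries and in 37.6% in the DKO library. These values chose the cells and are given as a description, without a test. A gate without Gdf10 kept 266, 139 and 221 control cells and 234, 85 and 153 cKO cells. The gate took 173 cells (13.0%) with all 4 genes and 208 (15.7%) with only 1 of them. Just inside the threshold, 349 cells had exactly 3 gate UMIs and held 174 to 445 CPM of Slc6a11. Just outside, 557 cells had exactly 2 and held 171 to 310 CPM. Both ranges are on raw totals, without TMM factors.

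The first question was whether the cKO libraries held more or fewer gated cells. Of the kept cells, the control libraries held 3.51%, 2.98% and 2.41% inside the gate, while the shares of the cKO libraries were 3.99%, 5.03% and 2.67%. The DKO library had 2.51%. The exact 95% binomial interval of cKO library 2, the highest, was 4.09% to 6.12%, and that of control library 3, the lowest, was 2.11% to 2.74%; both cover counting error only. The mean share was 2.97% ± 0.551 (SD, n = 3) for control libraries and 3.90% ± 1.19 (SD, n = 3) for cKO libraries, with overlapping values. A two-sided exact permutation test gave p = 0.3, and 3 libraries against 3 cannot go below 0.1. The gate genes set this share, and Gdf10 was detected in more of the gated cells in each cKO library than in any control library. The share is thus a description of the gate, and the test cannot decide on the number of astrocytes. The libraries differ in depth, so each cell with at least 3000 UMIs was also thinned to 3000 before gating. The shares were then 2.42%, 2.68% and 1.24% in control, 2.49%, 3.04% and 2.66% in cKO and 1.60% in DKO (exact two-sided permutation test of cKO against control, p = 0.3). The same gate genes set the thinned shares, so the same limit holds.

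The targeted genes were read in every library. Prdm16 (chr4:154316125-154636873, minus strand, GRCm38) stood at 54.6, 46.1 and 56.1 CPM in control, at 53.5, 54.2 and 57.3 CPM in cKO and at 50.5 CPM in DKO. Between cKO and control (cKO less control) the difference on the log2 scale was 0.07 with a standard error of 0.17 (adjusted p = 0.94). Here and below, standard errors and adjusted p come from the quasi-likelihood fit of edgeR over all genes, adjusted after Benjamini and Hochberg. Counting at 3′ ends cannot tell whether the floxed exons were lost, so these values do not check the deletion. Vcam1, an adhesion receptor that is floxed only in the DKO, stood at 311, 247 and 305 CPM in control and 373, 277 and 306 CPM in cKO, and at 150 CPM in DKO. It was detected in 48.0% of the gated DKO cells and in 81.0% to 94.7% of those of the other libraries. Prm1 had 0 UMIs in each control library, 150, 320 and 518 UMIs in the cKO libraries (94.4, 238 and 268 CPM) and 165 UMIs in the DKO library. Against a floor of 3 counts over the control group, the rate of Prm1 UMIs was at least 378-fold higher in cKO. Every library with Prm1 UMIs carries hGFAP-Cre and every control library lacks Cre. The presence of Cre and the loss of Prdm16 thus cannot be told apart for Prm1. Whether these UMIs come from the Prm1 gene itself was not tested. In edgeR the adjusted p of Prm1 was 0.098 with all 7 libraries, so it did not pass. With the replicate number as a block, over the control and cKO libraries, it was 7.3e-11 in edgeR, though the labels give no pairing. The fit without cKO library 1 gives no test of Prm1, since Prm1 set that library apart.

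Most of the genes called between gated astrocytes of cKO and control mice were higher in cKO. Over all genes tested, 49.1% had a log2 fold change above 0. In sums over cells, fewer cells that express a gene and less of it per cell cannot be told apart. Of 11844 genes tested, edgeR called 68 higher (0.574%) and 4 lower (0.0338%) at an adjusted p under 0.05, 0.608% in all. At an unadjusted p under 0.05 there were 1053 genes, 534 higher (4.51%) and 519 lower (4.38%). Without cKO library 1 it called 199 genes higher (1.68%) and 131 lower (1.1%) of 11876 (2.78% in all), and all 72 genes were among them. Of the 72, 32, 17 and 42 were called without control library 1, 2 or 3, and 22 and 24 without cKO library 2 or 3. Among the genes named below, Agt, Frzb, Scel, Cacna1g, Gfra2, Slc6a9 and Thbs3 kept their call whichever library was left out. With the libraries of Cell Ranger 6.0.1 alone, 2 control against 2 cKO, it called 15 higher and 0 lower. By contrast it called 0 of 11143 genes in endothelial cells (0%), where 247 had an unadjusted p under 0.05. DESeq2 called 114 genes higher and 10 lower in gated astrocytes, 68 of the 72 among them. In 63 of the 68 genes called higher, cKO library 1 was the cKO library nearest to the controls. The same count was not made over all genes tested, so it is not shown to be particular to the called genes.

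Agt, which encodes angiotensinogen, the precursor of the angiotensins and a product of astrocytes in the brain, was one of the 10 largest increases among called genes with an average log2 CPM of at least 4. Several called genes with fewer UMIs had larger folds. The gene lies at chr8:124556534-124569706 on the minus strand of GRCm38. The 300 bases from 250 before its start to 50 after it (RefSeq, GRCm38.p6, chr8:124569657-124569956, minus strand) are shown because Agt has the most UMIs of these 10. Capitals mark the TATAAA match that begins 30 bases before the start.

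Agt promoter: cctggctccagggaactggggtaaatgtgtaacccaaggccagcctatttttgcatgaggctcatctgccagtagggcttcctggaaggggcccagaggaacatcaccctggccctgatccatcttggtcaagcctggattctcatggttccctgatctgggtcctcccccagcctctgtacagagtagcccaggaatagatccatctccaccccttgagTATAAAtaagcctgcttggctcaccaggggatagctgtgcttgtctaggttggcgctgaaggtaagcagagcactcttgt

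Read on both strands, TATAAA occurs in 4473 of 32851 promoter windows of this length (13.6%). Of the genes called higher, 49 were found by symbol in the promoter table with 70 windows, and 4 of those windows (5.71%) hold it. The match in Agt is a description of its sequence and not a result about the called genes.

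In the control libraries Agt stood at 67.3, 112 and 80.5 CPM. The cKO libraries held 570, 1156 and 1267 CPM, and the DKO library 566 CPM. Every cKO library was far above every control library, with cKO library 1 and the DKO library at an intermediate level. The means were 86.5 ± 22.8 CPM (SD, n = 3) and 998 ± 375 CPM (SD, n = 3). On the log2 scale Agt rose by 3.53 with a standard error of 0.32 (edgeR, adjusted p = 0.00036). Leaving out each library in turn kept it between 3.32 and 3.81, with an adjusted p of at most 0.0069 in edgeR. Within Cell Ranger 6.0.1 libraries the fold change was 3.26 on the log2 scale, and cKO library 3 exceeded control library 3, the pair of version 6.1.1, by 3.96 on the log2(CPM + 1) scale. In Gfap/Thbs4 glia, where edgeR called 154 genes higher (1.36%) and 10 lower (0.0886%) of 11285, Agt was called too (adjusted p = 0.019). There it stood at 18.9 to 26.3 CPM in control and 170, 393 and 629 CPM in cKO. In endothelial cells it stood at 1.59 to 2.78 CPM in control and 4.59 to 12.6 CPM in cKO. These comparisons share their libraries.

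The spread of Agt over single cells differed between cKO libraries. With each gated cell thinned to 3000 UMIs, which left out 2 to 18 cells per library, Agt was detected in 19.0%, 26.6% and 18.7% of control cells. The share was 42.6%, 86.8% and 88.7% in cKO libraries 1, 2 and 3 and 46.4% in DKO. Before thinning the shares were 29.9% to 42.6% in control, 52.0%, 92.6% and 96.5% in cKO and 54.9% in DKO. In endothelial cells thinned alike, which had a median of 2909 to 5258 UMIs before thinning, the share was 0.645% to 4.81%. In cKO library 1, 57.4% of thinned cells had 0 Agt UMIs while 11.98% had at least 6. No thinned control cell reached 6. A count of 0 at this depth does not show that a cell lacks the transcript. In cKO libraries 2 and 3, 25.3% and 23.8% of cells had at least 6 and 13.2% and 11.3% had 0.

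**Figure D2:**
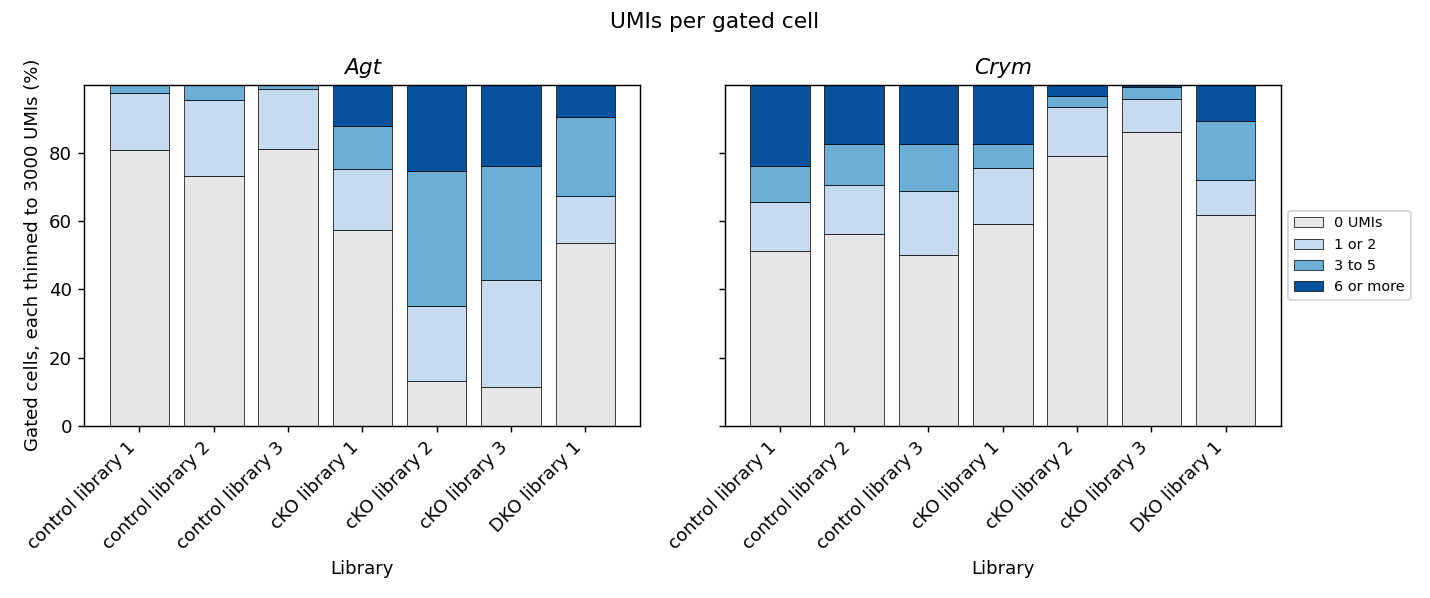
Shares of gated cells by their number of Agt UMIs (left) and Crym UMIs (right), each cell thinned to 3000 UMIs. Bars stand for libraries and the shading for UMI classes. In cKO library 1, 57.4% of cells have 0 Agt UMIs, and in cKO libraries 2 and 3, 13.2% and 11.3% do.

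In cKO library 1, the 77 gated cells with a Prm1 UMI held 924 CPM of Agt, and the 171 without held 365 CPM, both on raw totals. In the DKO library the values were 788 and 394 CPM, while in cKO libraries 2 and 3 cells without Prm1 held 1456 and 1297 CPM and those with it 1096 and 1211 CPM.

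Of the other large increases, several encode secreted or surface proteins. Frzb, a secreted inhibitor of Wnt signals, had 2, 1 and 0 UMIs in the control and 34, 47 and 80 in the cKO libraries (21.4, 34.9 and 41.3 CPM), with 17.0 CPM in DKO. The ratio of pooled rates was 61.7, with an exact 95% interval of 20.7 to 302 for counting error (edgeR adjusted p = 7.3e-05). Gfra2, the co-receptor for neurturin, stood at 1.5 to 1.9 CPM in control, at 22.7, 42.4 and 43.4 CPM in cKO and at 13.1 CPM in DKO. Neither gene overlapped between groups, which the rule that named them required. Ptx3, a long pentraxin of innate immunity, rose from 16.0, 10.6 and 8.4 CPM in control to 63.6, 121 and 153 CPM in cKO (log2 fold change 3.25, standard error 0.36, adjusted p = 0.0046 in edgeR's test), with 67.5 CPM in DKO. Without control library 2 its adjusted p was 0.088 in edgeR. Scel, which encodes sciellin, a protein of the cornified envelope of epithelia, had 1, 0 and 3 UMIs in control and 44, 62 and 110 in cKO. Its ratio of pooled rates was 62.0 (exact 95% interval 23.9 to 230). Thbs3, a thrombospondin of the extracellular matrix, stood at 12.2, 17.5 and 12.9 CPM in control and 39.7, 65.4 and 85.8 CPM in cKO, with 57.3 CPM in DKO (adjusted p = 0.0033, edgeR). Each of these 5 genes was lowest in cKO library 1 among the cKO libraries.

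Genes of ion channels, transmitter handling and synapses were also among the genes called higher. Cacna1g, a T-type calcium channel, had 2, 1 and 1 UMIs in control and 30, 45 and 82 in cKO, a ratio of 45.1 (exact 95% interval 17.3 to 168, counting error only). Slc6a9, the glycine transporter GlyT1 of astrocytes, rose from 42.8, 54.2 and 53.1 CPM to 104, 154 and 183 CPM, with 103 CPM in DKO. This is a rise of 1.56 on the log2 scale with a standard error of 0.21 (adjusted p = 0.0033, edgeR). Unc13c, which encodes the vesicle priming protein Munc13-3, rose from 24.5, 25.6 and 11.4 CPM to 82.5, 192 and 192 CPM. Nrxn3, a presynaptic adhesion molecule named after its values were seen, rose from 35.3, 28.7 and 54.1 CPM to 123, 252 and 279 CPM and was the only neuroblast marker called, of 10 tested. The adjusted p was 0.030 for Unc13c and 0.018 for Nrxn3 in edgeR's test. Unc13c lost its call without control library 1 or 2 or cKO library 2 or 3 (edgeR adjusted p 0.198, 0.18, 0.124 and 0.0984), and Nrxn3 without control library 1 or 2 or cKO library 2 (0.155, 0.127 and 0.0938). The cKO and control libraries did not overlap in any of these genes, as in 14.1% of all genes tested. The rule that named Cacna1g and Unc13c required this, and Nrxn3 was named after its values were seen. The lack of overlap is thus a description and not a result.

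Stress-related and non-coding genes completed the increases named by rule. Nupr1, a nuclear protein induced by cell stress, stood at 4.2, 10.0 and 15.9 CPM in control and 85.0, 104 and 185 CPM in cKO, with 92.5 CPM in DKO (adjusted p = 0.023, edgeR). Cdkn1a, the cell cycle inhibitor p21, rose from 2.4, 3.1 and 3.5 CPM to 11.96, 12.6 and 15.0 CPM. Cryab, a small heat shock protein, rose from 114, 163 and 139 CPM to 233, 410 and 390 CPM and stood at 190 CPM in DKO. Unlike most named genes, Cdkn1a was close to even across the 3 cKO libraries. The long non-coding RNA AI504432 rose from 6.1, 4.4 and 5.5 CPM to 30.8, 84.0 and 80.1 CPM. Gm29521, a processed transcript with 2 control UMIs in all, had 11, 50 and 73 UMIs in cKO, a ratio of 77.0 (exact 95% interval 20.9 to 642). Its edgeR adjusted p was 0.042, and 0.066 without Gdf10 in the gate. With 1 library left out, Nupr1 lost its call without control library 2 or cKO library 2 (edgeR adjusted p 0.202 and 0.0938) and AI504432 without control library 2 (0.0882). Cdkn1a and Gm29521 lost theirs without control library 1 or 2 or cKO library 2 or 3, at up to 0.123 and 0.276, and Gm29521 also without control library 3. Cryab kept its call only without cKO library 1, with up to 0.123 otherwise. Its log2 fold change was 2.37 in Gfap/Thbs4 glia (adjusted p = 0.0046, edgeR). The effect in gated astrocytes less that in these glia was -0.99 on the log2 scale (adjusted p = 0.0087, edgeR).

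Outside the rule, and chosen after their values were seen, 3 more genes of astrocyte metabolism were called higher. Fabp5, a fatty acid carrier, rose from 1249, 1576 and 1456 CPM to 2170, 3409 and 3967 CPM. Etnppl, which breaks down phosphoethanolamine, rose from 11.8, 26.8 and 9.4 CPM to 52.9, 76.5 and 59.4 CPM and reached 123 CPM in DKO. Aldh1a1, a retinaldehyde dehydrogenase, rose from 19.3, 35.5 and 13.9 CPM to 74.9, 124 and 117 CPM. In edgeR's test their adjusted p were 0.042, 0.022 and 0.014, and without Gdf10 in the gate Aldh1a1 lost its call (adjusted p = 0.052). Fabp5 kept its call only without cKO library 1 when 1 library was left out (up to 0.328 in edgeR), while Etnppl and Aldh1a1 lost theirs without control library 1 or cKO library 2 or 3 (up to 0.11 and 0.0969).

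Only 4 genes were called lower. Fbln2, a matrix glycoprotein, fell from 24.9, 20.6 and 19.9 CPM to 8.8, 7.4 and 6.2 CPM, with 21.0 CPM in DKO. Myl9, a myosin light chain of contractile cells, fell from 27.3, 39.3 and 52.1 CPM to 11.96, 18.6 and 12.9 CPM, and lost its call without Gdf10 in the gate (adjusted p = 0.0895, edgeR). Adam23, a surface protein that binds Lgi ligands, fell from 72.5, 89.8 and 64.1 CPM to 30.2, 40.1 and 43.4 CPM. The fourth, Gask1a, fell from 24.0, 32.4 and 28.3 CPM to 14.5, 6.7 and 10.3 CPM. Their log2 fold changes were -1.55, -1.46, -0.98 and -1.40 (adjusted p = 0.021, 0.026, 0.040 and 0.040, edgeR's quasi-likelihood test). Each of the 4 lost its call without control library 2, cKO library 2 or cKO library 3, and in part without control library 1 (Fbln2, Adam23, Gask1a) or 3 (Myl9, Gask1a). The adjusted p then reached 0.155, 0.18, 0.218 and 0.246 in edgeR's test. Mural cells also express Myl9. Their listed markers, which do not include it, summed to 156 to 340 CPM in the control libraries and 106 to 204 CPM in the cKO libraries, and their part in the fall of Myl9 was not tested.

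**Figure D3:**
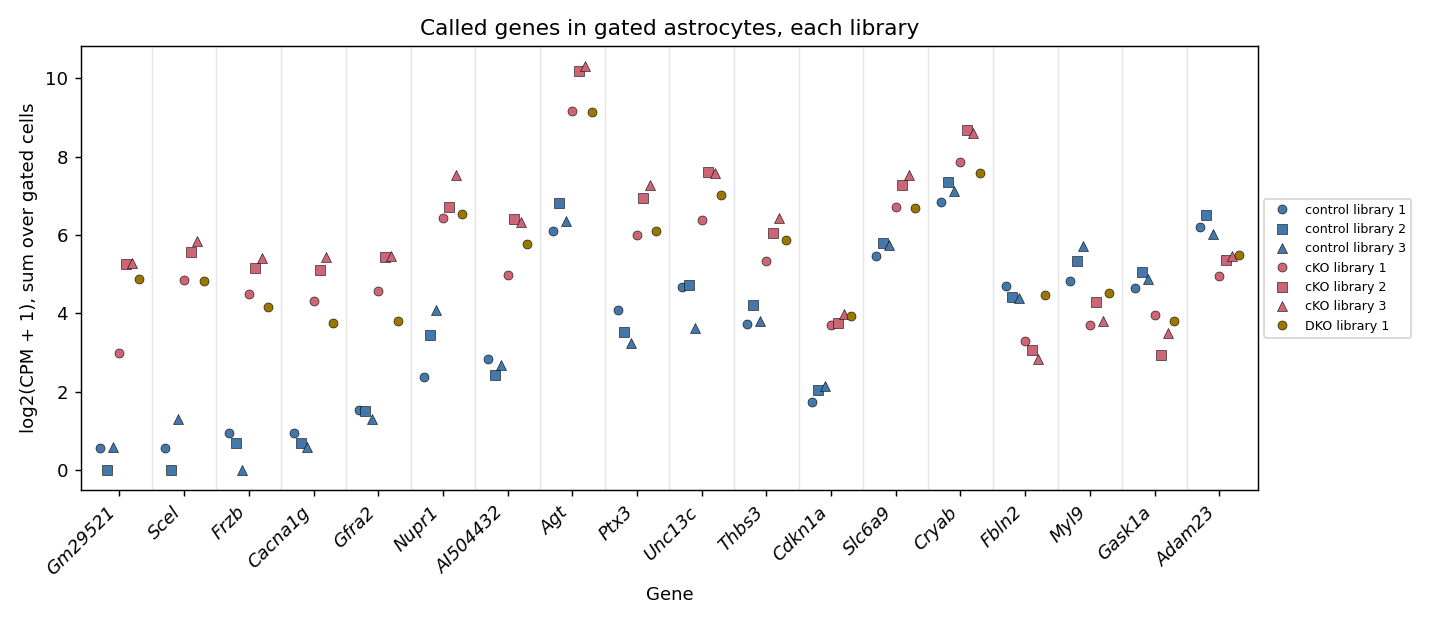
Called genes named by rule, on the log2(CPM + 1) scale, with 1 point per library. Genes higher in cKO stand on the left and the 4 lower ones on the right. cKO library 1 (red circles) and the DKO library lie nearer to the controls than cKO libraries 2 and 3 in genes such as Agt and Ptx3, with Agt at 570 CPM in cKO library 1 and 1267 CPM in cKO library 3.

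In a second kind of pattern, cKO library 1 stayed near the controls while cKO libraries 2 and 3 did not. Crym, a thyroid hormone binding protein, stood at 1198, 1096 and 999 CPM in control and at 962, 183 and 137 CPM in cKO, and the DKO library held 711 CPM. Its difference on the log2 scale was -1.36 with all 3 cKO libraries (standard error 0.85, adjusted p = 0.74, edgeR) and -2.79 without cKO library 1 (adjusted p = 6.7e-06, edgeR). In thinned cells Crym was detected in 43.9% to 49.8% of control cells, in 40.9%, 20.9% and 13.7% of cKO cells and in 38.1% of DKO cells. Il33, an alarmin cytokine, stood at 82.4, 70.5 and 62.6 CPM in control and 68.6, 8.9 and 3.1 CPM in cKO. Luzp2, a leucine zipper protein, stood at 420, 368 and 454 CPM and at 322, 76.5 and 83.7 CPM. Hopx, a homeodomain protein of quiescent stem cells, stood at 108, 55.5 and 68.0 CPM and at 57.3, 17.1 and 17.0 CPM. Il33, Luzp2 and Hopx were chosen after their values were seen, for this pattern, and are given as a description. With all libraries their adjusted p was at least 0.55 in edgeR.

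The intermediate filament genes moved the other way. Gfap stood at 203, 208 and 131 CPM in control, at 120, 551 and 542 CPM in cKO and at 159 CPM in DKO. Vim stood at 190, 256 and 159 CPM in control and at 183, 527 and 386 CPM in cKO. Neither passed the test with all libraries, with adjusted p of 0.67 for Gfap and 0.53 for Vim in edgeR. Without cKO library 1 both did, at 0.00082 and 0.012 (edgeR). Gabbr2, a GABA-B receptor subunit chosen after its values were seen, stood at 60.4, 14.9 and 23.8 CPM in cKO against 56.1 to 103 CPM in control. The Prm1 shares of the libraries move with these levels, and their part in them was not tested. In cKO library 1, gated cells with a Prm1 UMI held 761 CPM of Crym and those without held 1046 CPM, both on raw totals. With a Prm1 UMI, cells of cKO libraries 2 and 3 held 149 and 137 CPM, and without it 314 and 120 CPM. Thbs4 stood at 192, 49.9 and 16.0 CPM in cells with Prm1 of cKO libraries 1, 2 and 3. Cells without it held 118, 10.0 and 2.3 CPM. In DKO, cells with and without Prm1 held 648 and 738 CPM of Crym and 44.4 and 98.6 CPM of Thbs4.

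**Figure D4:**
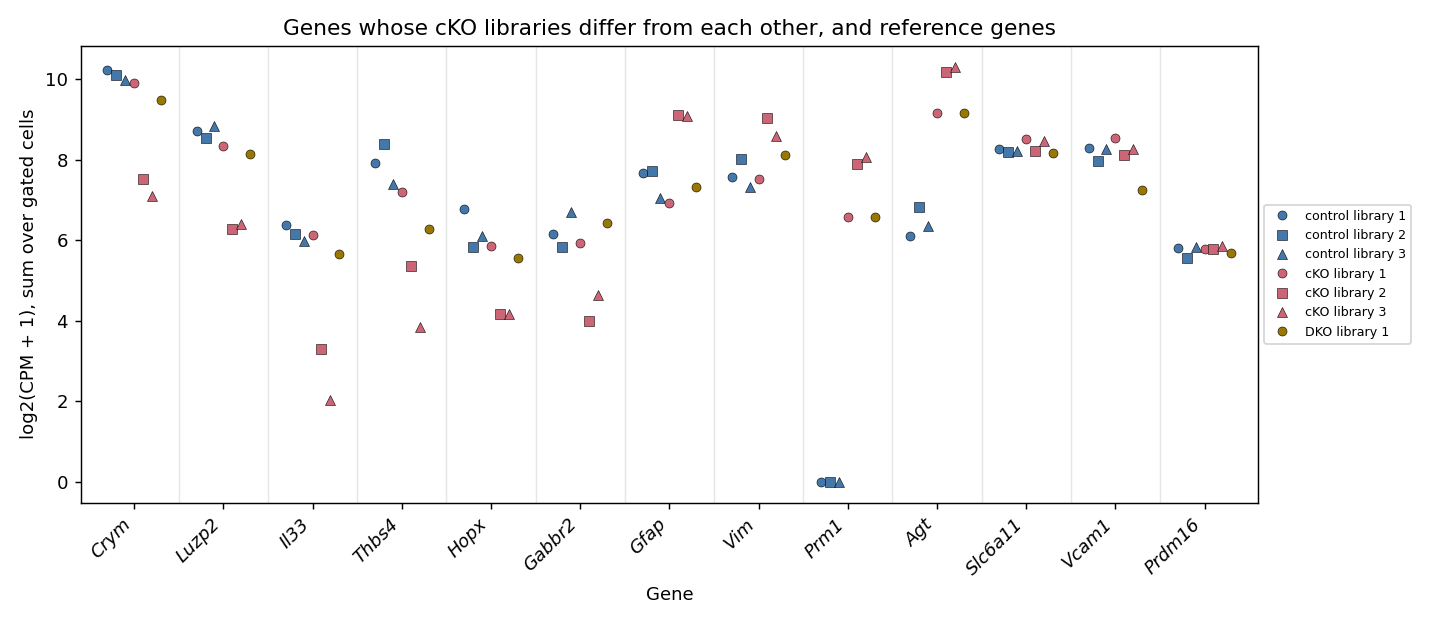
Levels of genes in which cKO library 1 stood apart from cKO libraries 2 and 3 (from Crym to Vim), of Prm1 and Agt, and of Slc6a11, Vcam1 and Prdm16 for reference, on the log2(CPM + 1) scale with 1 point per library. Most of these genes were chosen after their values were seen. Crym stands at 962 CPM in cKO library 1, against 183 and 137 CPM for the other two, while Slc6a11 spans 284 to 364 CPM over all libraries.

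Gene lists of astrocyte functions were then described by the number of members called and the median log2 fold change, beside a median of -0.01 and 0.608% called over all genes tested. Calls made without cKO library 1 stand beside 2.78% of all genes in that fit. Of 22 astrocyte markers outside the gate, 17 had a log2 fold change below 0 and the median was -0.09. Agt alone was called, and 4 markers were lower at an unadjusted p under 0.05 (Slco1c1, Ppp1r3c, Phkg1 and Itih3). Without cKO library 1, Slco1c1, a thyroid hormone transporter, Phkg1, a phosphorylase kinase subunit, Itih3 and Mfge8, a secreted bridging protein, were called lower (adjusted p = 0.037, 0.022, 0.0044 and 0.047, edgeR). Itih3 stood at 87.6, 103 and 78.0 CPM in control and 77.4, 41.6 and 35.6 CPM in cKO. These 5 genes were named after their values were seen. The glutamate transporter Slc1a2 (GLT-1) and the glycolytic enzyme Aldoc, the markers with most UMIs, had log2 fold changes of -0.01 and -0.26 (adjusted p = 0.99 and 0.81, edgeR). Slc6a11 itself stood at 308, 290 and 295 CPM in control and 364, 297 and 351 CPM in cKO (log2 fold change 0.18, standard error 0.18, adjusted p = 0.82, edgeR).

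Among 20 genes of glutamate and GABA handling, Slc6a9 was called, 3 had an unadjusted p under 0.05 in edgeR and the median was 0.09. Without cKO library 1 the median was 0.02. There Gabbr2 and Gabrg1, both named after their values were seen, were also called, both lower (adjusted p = 0.0021 and 0.013, edgeR). Glul, glutamine synthetase, had a log2 fold change of 0.04 (adjusted p = 0.97, edgeR). Of 16 genes of water, potassium and gap junction transport none was called by edgeR, with 3 at an unadjusted p under 0.05 and a median of 0.04. The connexin Gja1 had a log2 fold change of -0.05 (adjusted p = 0.96, edgeR), smaller than its standard error of 0.20. Among 17 genes of glucocorticoid and thyroid hormone response Cdkn1a was called, the median was 0.00, and the metallothioneins Mt1 and Mt2 had log2 fold changes of 0.09 and 0.08 (adjusted p = 0.97 each, edgeR).

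Cholesterol synthesis genes leaned low without passing the test one by one. Of 21 members, which make the cholesterol that astrocytes export to neurons, 19 had a log2 fold change below 0 and the median was -0.31, but edgeR called none. At an unadjusted p under 0.05, 4 were lower (Idi1, Fdft1, Sc5d and Dhcr7) and Ebp was higher, all 5 named after their values were seen. Their mean log2(CPM + 1) was 6.47, 6.56 and 6.52 in control, 6.40, 6.05 and 6.25 in cKO and 6.52 in DKO, with no overlap of control and cKO. Msmo1, a sterol methyl oxidase, stood at 801, 928 and 809 CPM in control and 812, 395 and 593 CPM in cKO (log2 fold change -0.50, adjusted p = 0.60, edgeR). Hmgcs1, which makes HMG-CoA, had a log2 fold change of -0.26 (adjusted p = 0.78, edgeR). The median was -0.43 without cKO library 1, where Dhcr7, a sterol reductase, was called lower (adjusted p = 0.026, edgeR). The median was -0.29 within Cell Ranger 6.0.1 libraries and -0.34 between cKO library 3 and control library 3. In Gfap/Thbs4 glia it was -0.28, and in endothelial cells -0.04.

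Sterol sensing and lipoprotein export genes had a median of -0.14 over 17 members with none called by edgeR, 4 of them at an unadjusted p under 0.05. The apolipoprotein genes Apoe and Clu, the members with most UMIs, had log2 fold changes of 0.10 and -0.82 (adjusted p = 0.93 and 0.27, edgeR). Clu stood at 5328, 8008 and 5753 CPM in control and 5054, 3019 and 2726 CPM in cKO and was called lower without cKO library 1 (adjusted p = 0.018, edgeR).

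All 76 nuclear genes of oxidative phosphorylation tested had a log2 fold change above 0, against 49.1% of all genes, with a median of 0.27, and edgeR called none (3 at an unadjusted p under 0.05). The mean log2(CPM + 1) of the list was 7.47, 8.21 and 8.18 in control and 8.01, 8.34 and 8.41 in cKO, so the groups overlapped. Control library 1 and cKO library 1, the lowest of their groups, also had the fewest UMIs per gated cell, and the part of depth in this list was not tested. Without control library 1 the median was 0.08. Cytosolic ribosomal protein genes behaved alike, with 80 of 81 above 0, a median of 0.26 and none called by edgeR (1 at an unadjusted p under 0.05), and a median of 0.09 without control library 1. In endothelial cells the medians of these lists were 0.15 and 0.12, also above 0. Over the 13 genes of the mitochondrial genome the median was 0.14, with none called or at an unadjusted p under 0.05 by edgeR, and -0.32 in the DKO library. Fatty acid oxidation (25 genes, median 0.02) and glycolysis (24 genes, median 0.07) held no called gene, with 2 and 4 at an unadjusted p under 0.05 in edgeR.

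Of 17 genes of reactive astrocytes Ptx3 was called, and the median was 0.14, against 1.14 over 16 genes in Gfap/Thbs4 glia. There 13 were above 0, beside 5506 of all 11285 genes, and 3 were called higher, beside 1.36%. Without cKO library 1, Gfap, Vim, Cp and Stat3 were called too in gated astrocytes, where the median was 0.34. Cp and Stat3 were named after their values were seen. Of 22 genes of neural stem cells and radial glia none was called by edgeR and 6 had an unadjusted p under 0.05, 3 in each direction. Without cKO library 1, 4 were called (Thbs4, Gfap, Hopx and Sox11). Thbs4, a thrombospondin chosen like Hopx and Sox11 after its values were seen, stood at 242, 334 and 167 CPM in control, at 146, 40.1 and 13.4 CPM in cKO and at 77.2 CPM in DKO. Its log2 fold change was -1.90 with all libraries (adjusted p = 0.66, edgeR). Id3, a target of BMP signals, stood at 720 to 1124 CPM in control and 1291 to 1636 CPM in cKO (log2 fold change 0.62, adjusted p = 0.35, edgeR). Regional identity genes leaned low, with 12 of 14 below 0, a median of -0.23 and none called by edgeR (3 at an unadjusted p under 0.05). The median was -0.18 without cKO library 1, where Crym and Sall3, the second named after its values were seen, were called lower (adjusted p = 6.7e-06 and 0.013, edgeR). Lhx2, a forebrain homeodomain factor of this list chosen after its values were seen, stood at 406, 364 and 317 CPM in control and 327, 253 and 207 CPM in cKO (adjusted p = 0.53, edgeR). Synaptogenic and matrix genes (21, median -0.11) held Thbs3 as the single called member, and heat shock genes (13, median 0.31) held Cryab. Of the heat shock genes, 2 were higher and 2 lower at an unadjusted p under 0.05 in edgeR. Their median was 0.37 within Cell Ranger 6.0.1 libraries and -0.03 between cKO library 3 and control library 3. The 9 hedgehog pathway genes (median -0.13) and 17 immediate early genes (median 0.24) held none in edgeR's test, with 2 and 3 at an unadjusted p under 0.05. The median of the immediate early genes turned to -0.09 within Cell Ranger 6.0.1 libraries and was 0.67 between cKO library 3 and control library 3. It was 0.33 without cKO library 1, where Junb and Zfp36, named after their values were seen, were called.

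**Figure D5:**
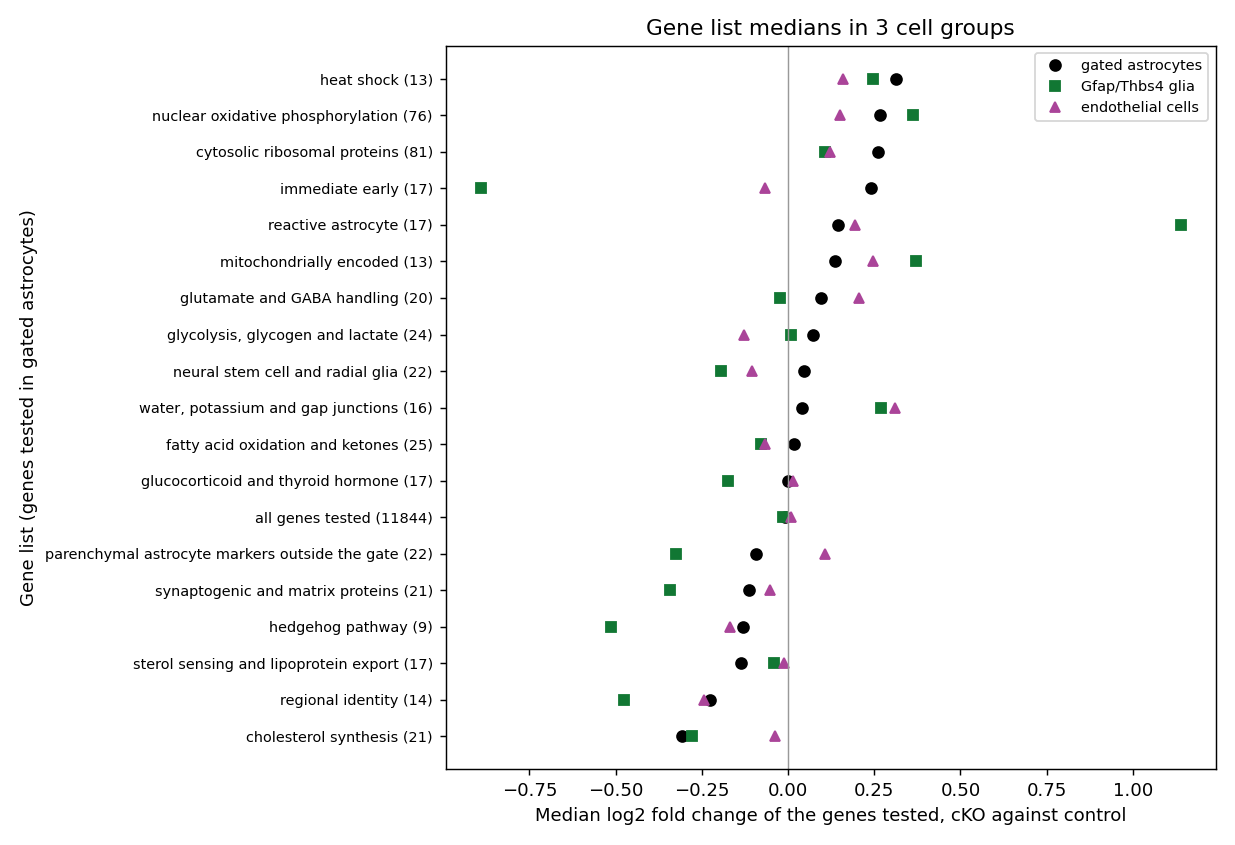
Median log2 fold change of cKO against control for each gene list in gated astrocytes, Gfap/Thbs4 glia and endothelial cells, with the number of genes tested in gated astrocytes in parentheses. Cholesterol synthesis has the lowest median in gated astrocytes (-0.31). Immediate early genes stand at 0.24 in astrocytes, where the median turns to -0.09 in Cell Ranger 6.0.1 libraries, and at -0.89 in Gfap/Thbs4 glia.

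Whether gated astrocytes responded differently from Gfap/Thbs4 glia of the same libraries was tested as the interaction of cell group and genotype, with the library as a block. Gfap and Thbs4, which chose the second group, also differed in it between control libraries and cKO libraries 2 and 3. Gfap stood at 691, 182 and 471 CPM in control glia and 595, 1400 and 1634 CPM in cKO glia. Thbs4 stood at 759, 816 and 665 CPM in control glia and 568, 83.7 and 14.8 CPM in cKO glia. The gate may thus have taken in different glia by genotype, and the part of this in the differences below was not tested. Of 12228 genes tested, the cKO effect differed in 125 (1.02%), 47 with a higher (0.384%) and 78 with a lower value (0.638%) in gated astrocytes by edgeR. The count was 38 without control library 3, 56 without cKO library 3, 242 without cKO library 1, 21 at no more than 5% mitochondrial UMIs and 41 in DESeq2. Against endothelial cells it differed in 29 of 13098 (0.221%), 22 higher (0.168%) and 7 lower (0.0534%). The Gfap/Thbs4 glia numbered 187, 52 and 193 cells in the control libraries and 176, 38 and 118 in the cKO libraries. Cacna1g was one of the 5 largest differences, with 0.9 to 4.3 CPM in control glia and 1.7 to 3.5 CPM in cKO glia against 18.9 to 42.4 CPM in cKO astrocytes (difference 4.88 on the log2 scale, adjusted p = 0.017, edgeR). Nell2, a secreted EGF-domain protein of neurons, stood at 7.1, 9.4 and 11.9 CPM in control astrocytes and 31.5, 39.4 and 72.8 CPM in cKO astrocytes. In glia it stood at 4.3 to 22.5 CPM in control and 7.6 to 9.2 CPM in cKO (difference 3.02, adjusted p = 9.7e-05, edgeR). Kcnj16, the inward rectifier Kir5.1, went the other way. It stood at 5.5 to 16.5 CPM in control and 6.7 to 14.5 CPM in cKO astrocytes, and at 0 to 2.7 CPM in control and 10.8, 38.0 and 19.2 CPM in cKO glia (difference -4.30, adjusted p = 0.0060, edgeR). Aebp1, a carboxypeptidase-like matrix protein, stood at 0 to 7.74 CPM in control and 29.1, 96.4 and 81.9 CPM in cKO glia, and at 0.471 to 4.99 CPM in control and 2.52 to 8.27 CPM in cKO astrocytes (difference -3.18, adjusted p = 0.0062, edgeR). For Agt the difference was -0.42 (standard error 0.23, adjusted p = 0.62, edgeR) and did not pass. Of the 72 genes called in gated astrocytes, 66 were tested in these glia, where 63 had the same direction. There edgeR called 20, all higher, against 1.45% of all genes tested. Ptx3, Slc6a9, Thbs3, Gfra2, Scel, AI504432, Etnppl and Cryab were among them (edgeR adjusted p up to 0.0471). Nupr1, Unc13c, Cdkn1a, Gm29521, Fabp5 and Aldh1a1 were not. The count of directions was not made over all genes. The interaction test called 6 of the 72, against 1.02% of all genes.

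The single DKO library was read against the ranges of the other groups. In the shared fit, where its spread is assumed equal to that of the other groups, edgeR called 10 genes higher and 0 lower against control (0.0844% of 11844). Against cKO it called 3 higher and 0 lower (0.0253%), S100a10, Gm17167 and Tshr, which were named after their values were seen. S100a10, a partner of annexin A2, stood at 57.9 CPM in DKO and at 2.5 to 7.2 CPM in the other 6 libraries. Tshr, the thyrotropin receptor, stood at 43.7 CPM and at 1.3 to 3.8 CPM. Gm17167 had 48 UMIs in DKO and 0 or 1 in each other library. These calls set 1 pool of mice against the other groups, so the DKO genotype and that pool cannot be told apart. The comparisons of DKO and of cKO with control share the control libraries. Of the 68 genes called higher in cKO, 66 stood above every control library in DKO. Among the same 68, 32 were at least as high in DKO as in the lowest cKO library. Of the 4 called lower, 3 stood below every control library in DKO, and 1 was at least as low as the highest cKO library. These counts were not made over all genes, and the control values also chose these genes.

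Transcripts of other cell types were present in every library. Oligodendrocyte markers summed to 1064 to 1637 CPM in control and 1158 to 1652 CPM in cKO. Neuron markers, led by Meg3, summed to 446 to 1097 CPM in control and 376 to 847 CPM in cKO. Microglia markers summed to 51.3 to 71.5 CPM and 40.1 to 83.7 CPM. Endothelial markers, led by Bsg, summed to 821 to 957 CPM and 498 to 864 CPM. The neuron gene Snap25, named after its values were seen, stood at 5.94 to 67.0 CPM in gated cells. Cldn5 stood at 6.69 to 47.2 CPM in gated cells, against 4476 to 6780 CPM in endothelial cells. Hemoglobin and erythroid genes summed to 90.4, 200 and 2866 CPM in control and 720, 122 and 306 CPM in cKO, highest in control library 3. OPC markers, led by Cspg5, which astrocytes also express, summed to 2186 to 2669 CPM in control and 1000 to 2105 CPM in cKO. Neuroblast markers summed to 173, 189 and 263 CPM in control, 290, 331 and 408 CPM in cKO and 381 CPM in DKO, without overlap of control and cKO. Nrxn3, the most counted of them, made up 123, 252 and 279 CPM of the cKO sums and was the only marker of another cell type called. With Nrxn3 taken off, the sums of the other neuroblast markers overlapped between control and cKO. The part of neuroblast transcripts in the rise of Nrxn3 and Unc13c was not tested.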

How the data were processed

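Libraries were prepared with the 10x Genomics 3′ kit. The authors deposited raw UMI counts per gene and barcode from Cell Ranger (6.1.1 per the submitters' processing notes, 6.0.1 or 6.1.1 per the file headers) on mm10, without normalization; gene and barcode lists accompany them. Of 32285 gene identifiers, 32235 (99.8%) were in GENCODE vM21, which gave coordinates.

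Gated cells were summed per library and compared with edgeR 4.0.16 (R 4.3.3; filterByExpr, TMM, robust quasi-likelihood test) in 1 fit of 7 libraries and 3 groups, Benjamini-Hochberg adjustment, threshold 0.05. The 12 genes of the gate were not tested. The spread of the single DKO library was taken from the other groups. Libraries pool mice, so p-values measure the spread between pools. Intervals and floors (3 counts) cover counting error only. Single values were compared by exact two-sided permutation tests. Promoters came from RefSeq (GRCm38.p6). Scrublet in scanpy 1.11.5 (expected rate 0.08) marked 22 gated cells as doublets, which were kept; its threshold failed in control library 1, where the median of the others served.

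The members, gene lists and tests were chosen with earlier results of these data known. Genes were named by rule: Prdm16, Vcam1, Prm1; up to 10 called genes each way by size of change, given non-overlapping groups and an average log2 CPM of 4 or more; in each list the called members and the 2 with most UMIs; the 5 largest and smallest interactions with Gfap/Thbs4 glia. Others are marked, and 3 genes are not reported here. The fit was tested on simulated data. Alternatives were DESeq2 1.42.0, other filters, gates and blocks, left-out libraries, equal cell numbers and thinned cells; 3 were added after the data were seen.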

Additional observations from a re-analysis of the deposited data

Results flagged for a closer look

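Of 12228 genes, 125 differed in their cKO effect between gated astrocytes and Gfap/Thbs4 glia by edgeR's interaction test, which is what drew attention to them. The largest differences on the log2 scale were 5.93 for Tmem204, 4.88 for Cacna1g, 3.72 for B230312C02Rik, 3.02 for Nell2 and 2.23 for Zfand2a, where the astrocytes had the higher value. The smallest were -6.37 for Ucma, -4.30 for Kcnj16, -3.89 for Igsf9b, -3.60 for Igsf1 and -3.18 for Aebp1. Several rest on few UMIs: Ucma was at 0 CPM in the glia of all 3 control libraries and at 31.6, 86.2 and 131 CPM in those of cKO libraries, and Tmem204 at 0.9, 34.3 and 5.4 CPM in control glia, with control library 2 apart, and at 0 to 0.9 CPM in cKO glia. Fitted differences against groups at 0 depend on the prior count and are no bound. Gfap and Thbs4, which chose the glia, themselves differed between control libraries and cKO libraries 2 and 3, and the part of this was not tested. Against endothelial cells, the cKO effect differed in 29 of 13098 genes (0.221%).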

How the results depend on the processing

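Of 72 called genes, 71 remained called with the Cell Ranger version as a block, 70 of 70 tested without the DKO library, 71 without doublets, 66 with a gate without Gdf10, 51 of 71 tested at most 5% mitochondrial UMIs, 13 of 69 tested in Cell Ranger 6.0.1 libraries alone, and all kept their direction. The number called was 124 in DESeq2, 365 with no filter on low counts, 162 at a gate sum of at least 5, 15 with 6.0.1 libraries alone, 339 without cKO library 1 and the DKO library, and 17 (without control library 2) to 330 (without cKO library 1) when 1 library was left out. It was 35 without control library 1 and 24 without cKO library 2 or 3. With the replicate number as a block it was 254 (178 higher, 76 lower); same-numbered libraries deviated together with correlations of 0.22, 0.097 and 0.38, each the highest for its number, which is a hint from the data only, and the labels give no pairing. The number of interactions was 41 in DESeq2, 211 with no filter, 21 at 5% mitochondrial UMIs, 193 without doublets and 38 (without control library 3) to 242 (without cKO library 1) with 1 library left out, 56 without cKO library 3. List medians moved beyond 1 SD between libraries for cholesterol synthesis (-0.44 with equal cell numbers), glycolysis (-0.03 with cKO and DKO together), reactive astrocytes (0.51 at 5% mitochondrial UMIs, 0.47 with equal cell numbers, 0.39 without Gdf10 in the gate, 0.40 without control library 2), stem cell genes (-0.12 at a gate sum of 5, -0.10 without cKO library 1), hedgehog (-0.30) and synaptogenic genes (0.11) at 5% mitochondrial UMIs, glucocorticoid genes (-0.14 without cKO library 2 to 0.02 without cKO library 1) and immediate early genes (-0.09 in 6.0.1 libraries). Prdm16 ranged from -0.01 (without control library 2) to 0.12 with 1 library left out and was -0.01 at 5% mitochondrial UMIs, and Vcam1 turned to -0.06 with cKO and DKO together, none near the threshold. The gated share kept its direction in each setting in which it was taken, and a gate without Gdf10 was not among them. The cause of these shifts was not tested. With 94 to 271 gated cells and 38 to 193 Gfap/Thbs4 glia per library, genes of few UMIs are imprecise. A change missed by the test is not shown to be absent.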
